A study of Mus musculus with 12 samples.

Results

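The genes described here are the lysosomal cathepsins, the subunits of the lysosomal proton pump and the 2 major lysosomal membrane glycoproteins Lamp1 and Lamp2. They were taken by symbol from the gene tables of the study, as every gene named Cts followed by a single letter, every gene whose symbol begins with Atp6v or Atp6ap and a number, and Lamp1 and Lamp2. This gave 37 of the 16292 genes listed, namely 14 cathepsins, 9 subunits of the membrane sector V0, 10 subunits of the catalytic sector V1, 2 accessory subunits and the 2 LAMPs. The rule reads symbols and no measured value, though the set was proposed with earlier results of these data known. Of the 37, 34 were listed in all 4 gene tables. Ctsg and Atp6v0a4 were listed only for wild type mice, and Ctsj only in the tables of CCl4-treated mice and of Lcn2 null mice.

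RNA came from whole liver of female C57BL/6 mice, either wild type or Lcn2 null (Lcn2-/-), which lack lipocalin 2, an iron-binding acute phase protein. Starting at 8 weeks of age, both genotypes were injected intraperitoneally with mineral oil alone or with the liver poison CCl4 (0.8 ml/kg, dissolved in mineral oil) 2 times each week over 8 weeks. The livers were taken 48 h after the final dose. All 4 groups thus received mineral oil and no group was left without injection. Each group had 3 libraries, given only as replicate numbers, so the p-values rest on the spread from library to library alone, part of which could be technical.

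Cathepsins are the proteases of the lysosome, most of them cysteine proteases, with the aspartic protease Ctsd and the serine proteases Ctsa and Ctsg as the exceptions in this set. They work at acid pH, which is set by a rotary proton pump whose V1 sector splits ATP in the cytosol and whose V0 sector moves protons across the membrane, while Lamp1 and Lamp2 coat that membrane from the inside. In the liver every cell type has lysosomes, and macrophages are known for a high content of several cathepsins.

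Levels are given as CPM, the reads of a gene divided by all reads in genes of its library and scaled to 1 common total. The libraries held 7582962 to 14591487 reads in genes (median 8933716), at which 3 reads equal 0.206 to 0.396 CPM. Groups were compared with limma on log2(CPM + 1), and genes with an adjusted p of 0.05 or less (Benjamini-Hochberg over all genes of the table) and a log2 fold change beyond 0.56 in either direction (1.47-fold) are referred to as called. On the log2(CPM + 1) scale the changes of low genes come out too small. An SD over 3 libraries follows each ± sign. Lcn2 itself was at 345 to 1045 CPM in the 6 wild type libraries and at 3.44 to 16.7 CPM in the 6 Lcn2 null libraries. Every library thus matched the genotype of its label. Within each genotype the Lcn2 levels on oil and CCl4 overlapped, so they do not check the injection.

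The promoters of the set are shown because genes of this group are known to share an E-box, CACGTG, whose extended form TCACGTGA is the core of the element bound by TFEB and its relatives, the transcription factors of lysosomal genes. RefSeq (GRCm38.p6) gave a window from 250 bases before to 50 bases after the start for 28 of the 37 genes. CACGTG was present in 9 of these 28 genes (32.1%), against 8.09% of the 27025 genes with such a window. TCACGTGA was present in 5 of the 28 (17.9%) against 1.12% of all genes. Both motifs read the same on either strand, and every TCACGTGA also contains CACGTG. The windows of 4 of the 5 genes around the element, the 250 bases before the start of Ctsd and the 70 bases before the start of Lamp1 follow, 5′ to 3′ on the strand of the gene, with the E-boxes in capitals (8 letters for TCACGTGA, 6 for CACGTG).

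Atp6v0d1, chr8:105566044-105566085, minus strand: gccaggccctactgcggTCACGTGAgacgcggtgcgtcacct
Atp6v0e, chr17:26676381-26676422, plus strand: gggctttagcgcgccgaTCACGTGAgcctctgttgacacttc
Atp6v1a, chr16:44139367-44139408, minus strand: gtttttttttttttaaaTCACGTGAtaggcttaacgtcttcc
Ctsa, chr2:164833743-164833784, plus strand: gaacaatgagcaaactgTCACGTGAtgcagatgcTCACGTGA
Ctsd, chr7:142387828-142388077, minus strand: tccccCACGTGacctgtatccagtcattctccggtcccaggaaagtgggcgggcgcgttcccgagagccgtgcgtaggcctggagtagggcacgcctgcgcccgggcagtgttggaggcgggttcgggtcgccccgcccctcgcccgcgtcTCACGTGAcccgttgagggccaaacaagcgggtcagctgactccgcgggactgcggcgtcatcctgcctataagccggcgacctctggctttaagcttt
Lamp1, chr8:13159091-13159160, plus strand: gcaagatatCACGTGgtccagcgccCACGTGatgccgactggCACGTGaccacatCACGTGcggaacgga

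Ctsa carried 2 copies of TCACGTGA around its start, at -13 and 5, and Lamp1 carried 4 copies of CACGTG within 61 bases of its start. Ctsd had TCACGTGA at -99 and a further CACGTG at -245. A second motif, GAGGAAGT, is a core bound by ETS factors such as PU.1 of the myeloid lineage. It was searched on both strands and found in 2 of the 28 genes (7.14%), Ctsc and Ctss, against 3.69% of all genes. In both it lies on the opposite strand and reads ACTTCCTC, shown in capitals, at -151 in Ctsc and at -2 in Ctss.

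Ctsc, chr7:88277917-88277958, plus strand: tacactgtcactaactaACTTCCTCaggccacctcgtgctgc
Ctss, chr3:95526767-95526808, plus strand: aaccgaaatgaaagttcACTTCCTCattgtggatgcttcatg

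The motifs were chosen with the expression results known. A match is a description of these letters and not a binding site.

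Between the genotypes on mineral oil, 2 cathepsins, Ctss and Ctsc, were lower in Lcn2 null livers, and the other 32 of the 34 genes measured were not called. Over all 14202 genes of this comparison, 3.80% were called lower and 1.11% higher, against 2 and 0 of the 34. Ctss, the elastinolytic cathepsin that antigen-presenting cells use to process the class II invariant chain, was at 137, 117 and 98.3 CPM in the wild type libraries and at 46.3, 39.3 and 57.3 CPM in the null libraries. The groups did not overlap, and the highest null library was below the lowest wild type library. The mean of the null libraries was 47.6 ± 9.05 CPM and that of the wild type libraries 117 ± 19.2 CPM (log2 fold change -1.29, standard error 0.15, adjusted p = 0.00050 from limma), a 2.44-fold lower level on the log2(CPM + 1) scale. Ctsc, the dipeptidyl peptidase that activates the granule serine proteases of neutrophils and cytotoxic lymphocytes, was at 244, 227 and 225 CPM in the wild type libraries and at 138, 151 and 149.9 CPM in the null libraries. These groups did not overlap either (log2 fold change -0.66, standard error 0.09, adjusted p = 0.0019 from limma). Both calls were kept under each of the 14 alternatives, with log2 fold changes from -1.42 to -1.16 for Ctss and from -0.69 to -0.62 for Ctsc. On GRCm38 these genes are Ctss (ENSMUSG00000038642, chromosome 3 from 95526786 to 95556403) and Ctsc (ENSMUSG00000030560, chromosome 7 from 88278085 to 88310888).

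**Figure D1:**
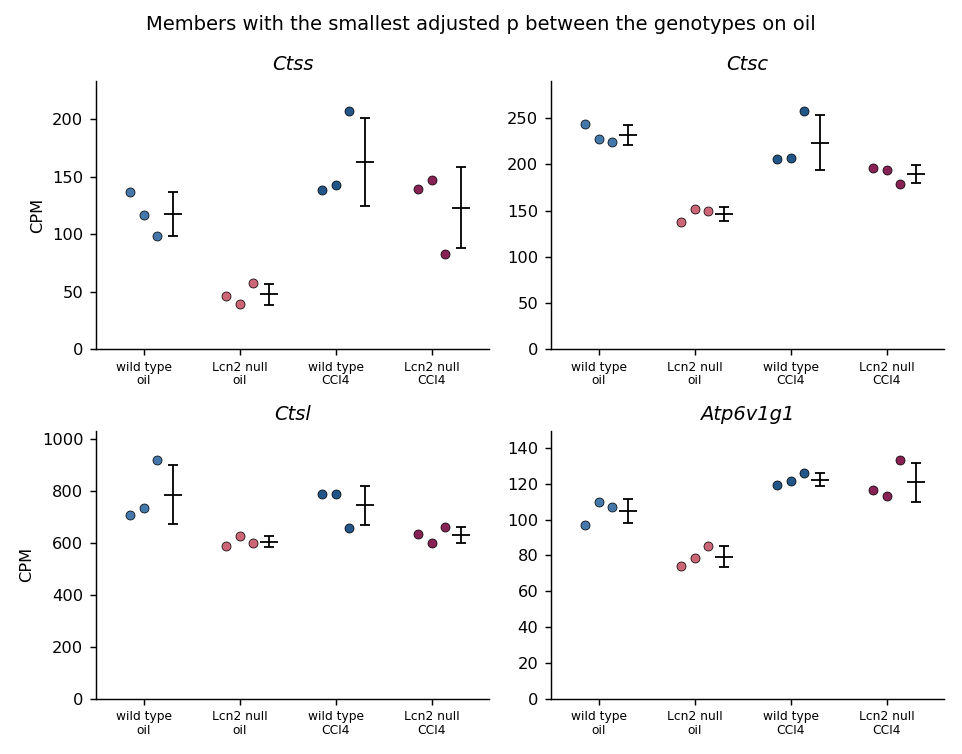
CPM of Ctss, Ctsc, Ctsl and Atp6v1g1 in each of the 12 libraries (points) by genotype and injection, with the mean and SD of 3 libraries beside them. On oil the null libraries of Ctss (39.3 to 57.3 CPM) and Ctsc (138 to 151 CPM) all lie below the wild type libraries (98.3 to 137 and 225 to 244 CPM), and on CCl4 the genotypes overlap for Ctss but not for Ctsc.

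Markers of several cell types moved in the same direction on oil, where 3.80% of all genes were called lower. In null livers 5 of 7 lipid-associated macrophage markers, 3 of 8 stellate cell and fibroblast markers and 7 of 7 mesothelial markers were called lower. The 7 T and NK cell markers measured on oil had 0 called in either direction. Of the 12 Kupffer cell markers 10 were called lower in null livers, with a summed level of 583 to 781 CPM in null libraries and 1017 to 1742 CPM in wild type libraries. Of the 10 monocyte and inflammatory macrophage markers 9 were called lower (115 to 177 against 321 to 720.5 CPM), and none of the 22 was at 0 in any library. Of the 8 neutrophil markers measured on oil 7 were called lower, and their sum over the 10 listed for every library was 24.5 to 45.6 against 194 to 303 CPM, with Mpo, Elane, Cxcr2, Ngp and Camp at 0 in 1 to 4 of the 12 libraries. The part of these cells in the levels of Ctss and Ctsc was not tested, and in whole liver fewer cells of a type and less RNA per cell cannot be told apart. The 8 hepatocyte markers included 0 called in either direction, at 95404 to 109866 CPM in null and 74428 to 88244 CPM in wild type libraries.

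None of the remaining 10 cathepsins was called on oil. In CPM 9 of the 10 had values below 0, with a median log2 fold change of -0.19 against -0.03 over all genes, and 7 of the 10 had them after rescaling the libraries with the TMM factors of edgeR, in edgeR and in DESeq2, where Ctsh and Ctsz turned positive as well. Ctsl, an endopeptidase of most tissues, was at 707, 735 and 918 CPM in wild type and 588, 628 and 599.6 CPM in null libraries. Its groups did not overlap and it was not called (log2 fold change -0.37, standard error 0.12, adjusted p = 0.091 from limma, 95% interval -0.62 to -0.11). Ctsf, a further cysteine cathepsin, had the positive value in CPM, 0.38 (adjusted p = 0.25 from limma). Ctsd and Ctsb, an aspartic and a cysteine protease found in most cells, had log2 fold changes of -0.11 (95% interval -0.33 to 0.10) and -0.23 (-0.48 to 0.02).

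None of the 18 V0 and V1 subunits was called between the genotypes on oil by limma, edgeR or DESeq2 (1 had an unadjusted p under 0.05), and their median log2 fold change was -0.06. Atp6v1g1, a subunit of the stalk that holds V1 in place, passed the adjusted p in CPM but not the fold threshold. Passing depended on the setting, with an adjusted p of 0.076 from limma on the TMM scale, 0.094 from edgeR and 0.014 from DESeq2. Its wild type libraries were at 97.0, 109.9 and 107 CPM and its null libraries at 73.9, 78.4 and 85.4 CPM, without overlap (log2 fold change -0.40, standard error 0.10, adjusted p = 0.041 from limma). Lamp1 and Lamp2 had log2 fold changes of 0.03 (95% interval -0.19 to 0.25) and 0.06 (-0.17 to 0.28).

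Other lysosomal genes were read from 5 lists. On oil, 0 of 40 further hydrolases were called higher and 1 lower, the asparaginyl endopeptidase Lgmn, which processes cathepsins to their mature forms (-0.73 on the log2 scale, limma adjusted p = 0.0050). Of 29 lysosomal membrane proteins 4 were called lower and none higher, among them the tetraspanin Cd63 (-1.03), the macrophage glycoprotein Cd68 (-0.88) and Laptm5 of white blood cells (-0.59). The 11 sorting receptors and activator proteins and the 17 Ragulator and MiT/TFE genes had 0 called. Of the 7 measured cathepsin inhibitors 4 were called lower and 1 higher. On the TMM scale 2 of the 29 membrane proteins were called lower, and 3 of the 7 inhibitors lower and 1 higher. Over the 104 genes of the 5 lists 9 were called lower and 1 higher, and 6 and 1 on the TMM scale. Among all genes 3.80% were called lower and 1.11% higher in CPM. The serpins Serpinb6b (-1.43), Serpina3g (-0.93) and Serpinb6a (-0.61) were lower, and Serpinb1a, an inhibitor of neutrophil serine proteases that include Ctsg, was higher (1.18).

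On CCl4, none of the 35 genes measured was called between the genotypes, by limma, edgeR or DESeq2. Over all 14445 genes, 0.104% were called higher and 0.194% lower. Without adjustment, 5 of the 35 had a p under 0.05 (3 higher, 2 lower), and the smallest adjusted p was 0.42. The share of all genes under 0.05 without adjustment was not counted. Ctss was at 139, 143 and 207 CPM in wild type and 139, 147 and 82.8 CPM in null libraries, so the groups overlapped (log2 fold change -0.42, 95% interval -0.87 to 0.02). Ctsc was at 206, 207 and 258 CPM in wild type and 196, 194 and 178 CPM in null libraries (log2 fold change -0.23, 95% interval -0.46 to 0.00). The 3 null libraries of Ctsc lay below the 3 wild type libraries, with an adjusted p of 0.58 from limma. For the V0 and V1 subunits the median log2 fold change was 0.05 against 0.04 over all genes, and Lamp1 and Lamp2 were at 0.02 and -0.08. Of the 104 other lysosomal genes 1 was called, the phospholipase B-like gene Plbd2, lower in null mice (-0.85). The Kupffer cell markers had 0 called here, with 759 to 1169 and 897 to 1529.9 summed CPM of Kupffer cell markers in null and wild type libraries.

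**Figure D2:**
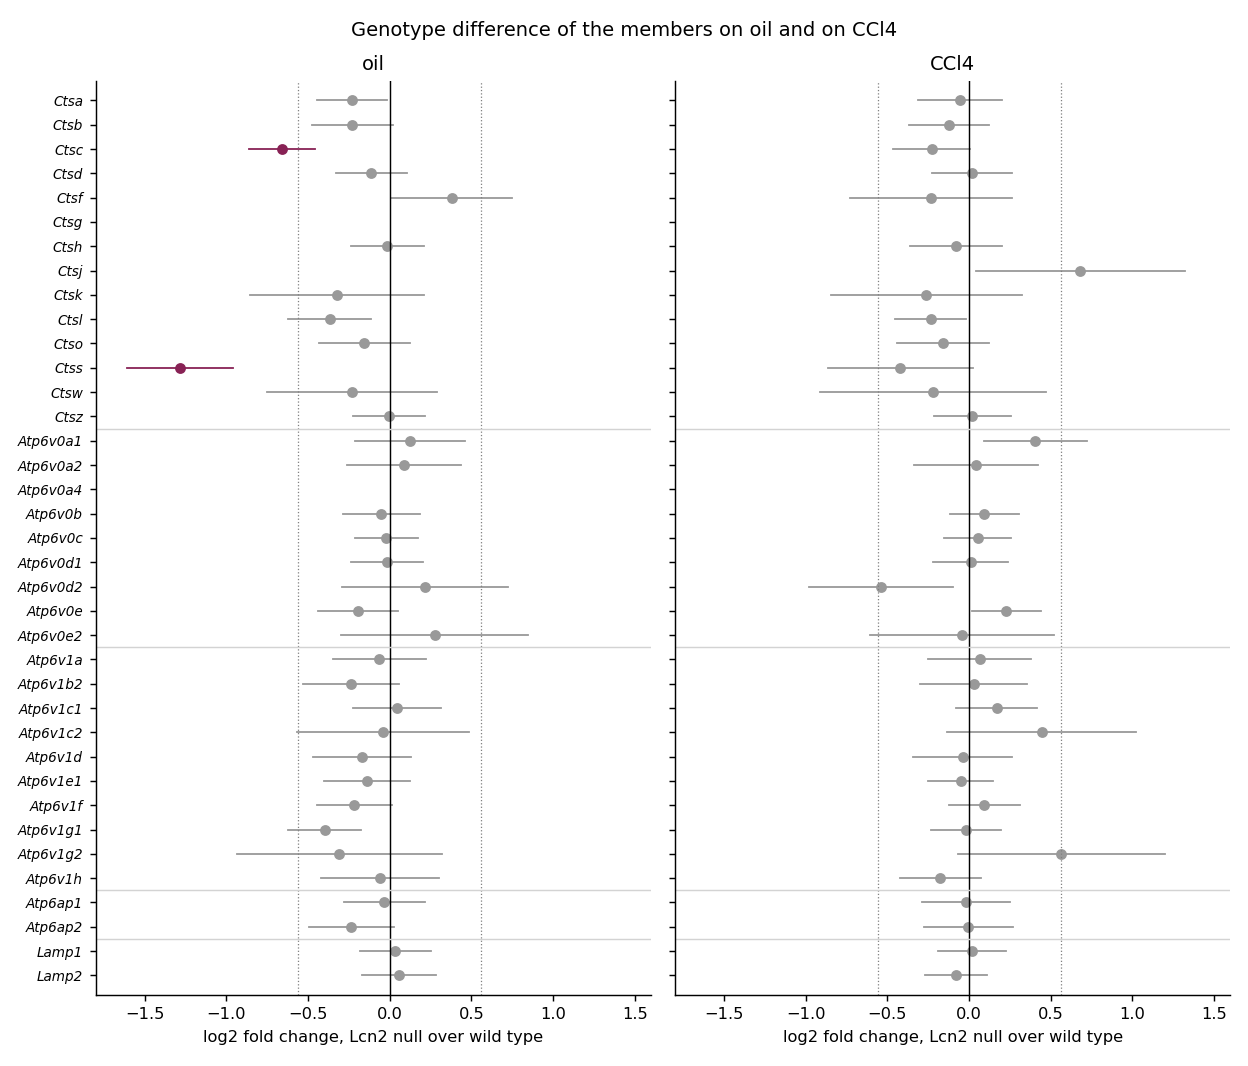
Log2 fold change of Lcn2 null over wild type for each gene of the set on oil (left) and on CCl4 (right), with 95% intervals from limma; purple marks called genes, dotted lines the fold threshold of 0.56, and genes without a point were not listed. On oil only Ctss (-1.29) and Ctsc (-0.66) are called, and on CCl4 none is.

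Within a genotype, CCl4 was compared with its oil vehicle. The number of genes called here depends on how the libraries are scaled. With CPM as deposited, the median log2 fold change of all genes was 0.27 in wild type and 0.35 in null mice, so that an average gene appeared higher on CCl4. After rescaling with the TMM factors of edgeR, which centre most genes at no change, these medians were 0.02 and 0.03. The CCl4 responses are therefore given in CPM with the TMM value or count beside them.

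Of the 36 genes measured in wild type mice 7 were called higher on CCl4 and 0 lower, against 18.5% and 3.18% of all 15841 genes. On the TMM scale 2 were called higher (Ctsd and Ctsk) and 2 lower (Atp6v0d2 and Lamp2), against 7.57% and 6.82% of all genes. In Lcn2 null mice 15 of 35 genes were called higher and 2 lower, against 29.6% and 4.51% of all 15645 genes. On the TMM scale 4 were called higher (Ctsd, Ctsk, Ctss and Ctsj) and 4 lower (Atp6v0d2, Ctsf, Ctsh and Lamp2), against 12.5% and 10.7% of all genes. Ctsj was listed in null mice through its CCl4 libraries alone, and without it 14 of 34 genes were called higher in CPM and 3 on the TMM scale. Leaving Ctsj aside, the calls that both scalings shared were Ctsd and Ctsk in both genotypes, Ctss in null mice and, in the other direction, Atp6v0d2 and Ctsf in null mice.

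Ctsd, the aspartic protease of the lysosome, was higher on CCl4 in both genotypes. Its wild type libraries were at 305, 297 and 336 CPM on oil and 692, 592 and 703 CPM on CCl4, with no overlap (log2 fold change 1.08, standard error 0.11, adjusted p = 7.2e-06 from limma, TMM scale 0.75). The null libraries were at 265, 295 and 307 CPM on oil and 689, 748 and 581 CPM on CCl4, again without overlap (log2 fold change 1.21, standard error 0.10, adjusted p = 2.7e-06 from limma, TMM scale 0.78). Across both genotypes, the 6 oil libraries of Ctsd (265 to 336 CPM) all lay below the 6 CCl4 libraries (581 to 748 CPM). Ctsd shares an exon with the gene model Gm49369 on the same strand, so reads of both could not be separated with certainty.

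Ctsk, the collagen-degrading cathepsin known from osteoclasts and activated fibroblasts, was at a low level and was higher on CCl4. Its wild type libraries were at 0.819, 0.960 and 1.20 CPM on oil and 4.31, 3.77 and 3.52 CPM on CCl4 (log2 fold change 1.29, standard error 0.25, adjusted p = 0.0018 from limma, TMM scale 1.07). In null mice the libraries were at 0.436, 0.502 and 0.868 CPM on oil and 4.75, 2.42 and 2.38 CPM on CCl4 (log2 fold change 1.35, standard error 0.28, adjusted p = 0.0019 from limma, TMM scale 1.11). None of the CCl4 libraries overlapped with the oil libraries of the same genotype. At these levels the log2(CPM + 1) scale holds the fold change down, and with a pseudocount of 5 it was 0.56 in wild type and 0.53 in null mice, the latter below the fold threshold. Ctsk and Ctss are neighbours on chromosome 3.

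Ctss was called higher on CCl4 in null mice and not in wild type mice. From oil to CCl4 the null libraries went from 46.3, 39.3 and 57.3 to 139, 147 and 82.8 CPM without overlap (log2 fold change 1.32, standard error 0.19, adjusted p = 0.00019 from limma, TMM scale 0.90). Null replicate 3 on CCl4 was the lowest of its group. The wild type libraries went from 137, 117 and 98.3 to 139, 143 and 207 CPM, which passed the adjusted p but not the fold threshold (log2 fold change 0.46, standard error 0.15, adjusted p = 0.037 from limma, TMM scale 0.13). Without wild type oil replicate 1 (0.58) or wild type CCl4 replicate 1 (0.56) it was called as well. The difference between these responses is given with the interaction test.

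Ctsb, a cysteine protease with endopeptidase and exopeptidase activity, was called higher on CCl4 in both genotypes with CPM as deposited only. It was at 880.3, 783 and 930.3 CPM on oil and 1203, 1207 and 1441 CPM on CCl4 in wild type mice (log2 fold change 0.57, standard error 0.13, adjusted p = 0.0044 from limma, TMM scale 0.24). In null mice it went from 666, 797 and 750.4 to 1185, 1308 and 1046 CPM (log2 fold change 0.67, standard error 0.11, adjusted p = 0.00030 from limma, TMM scale 0.25). The groups did not overlap in either genotype, and the wild type call was lost without wild type oil replicate 2 (0.50) or wild type CCl4 replicate 3 (0.48).

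Ctsj, a cathepsin of a mouse family best known from the placenta, was at 0 in all 3 null libraries on oil and at 0.659, 1.41 and 1.13 CPM on CCl4, equal to 5, 14 and 9 reads. Its mean on CCl4 was 1.06 CPM, and 3 reads equal 0.305 CPM on average in the null oil libraries. A share of reads from the close relatives of Ctsj was not tested. Since it was listed only through the group in which it is high, its fitted change (1.03, TMM scale 0.92, and 0.28 with a pseudocount of 5, under the fold threshold) is given as a description. The wild type libraries on CCl4 were at 0.221, 0.685 and 0 CPM.

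Ctsf was called lower in null mice, from 18.3, 17.7 and 17.5 CPM on oil to 10.5, 12.6 and 6.88 CPM on CCl4 without overlap (log2 fold change -0.81, standard error 0.20, adjusted p = 0.0059 from limma, TMM scale -1.21). The wild type libraries of Ctsf overlapped, at 16.5, 14.0 and 10.6 and 12.5, 9.53 and 13.2 CPM (log2 fold change -0.20, TMM scale -0.50). By DESeq2 Ctsf was called lower in wild type mice as well (-0.58, adjusted p = 0.022 from DESeq2). Ctsh, an aminopeptidase, had log2 fold changes of -0.14 in wild type and -0.21 in null mice, and on the TMM scale -0.47 and -0.63, of which the second was called. For Ctsa, Ctsl and Ctso the CPM fold changes lay between -0.16 and 0.06 in both genotypes, and on the TMM scale between -0.49 and -0.37. Ctsc and Ctsz were positive in CPM in null mice (0.37 and 0.25) and negative on the TMM scale (-0.05 and -0.18). Ctsw, a cathepsin of cytotoxic lymphocytes, and Ctsg, a neutrophil granule protease, stayed at or below 1.03 CPM in each library in which they were listed.

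**Figure D3:**
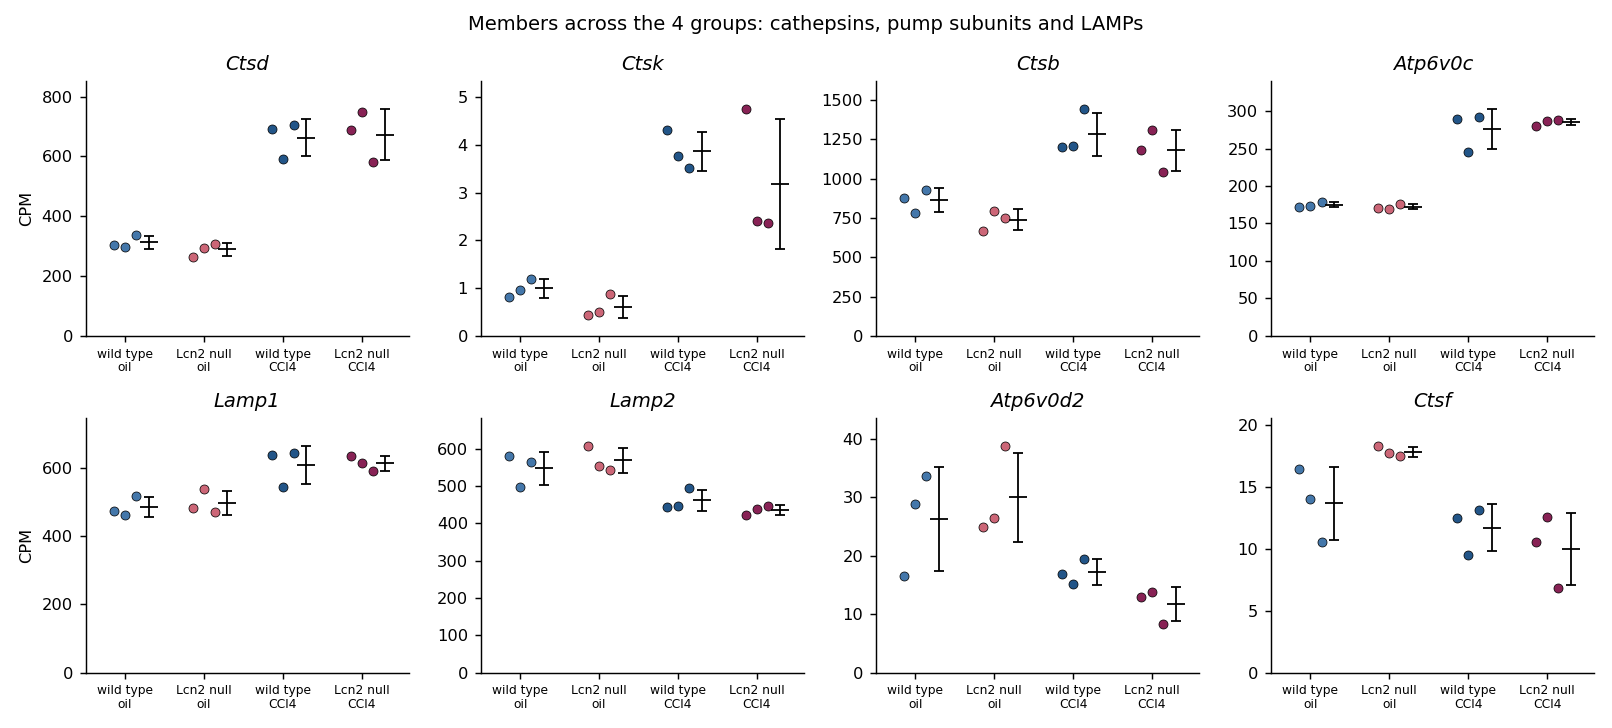
CPM of 8 genes in each of the 12 libraries (points) by genotype and injection, with the mean and SD of 3 libraries beside them. Ctsd lies at 265 to 336 CPM in the 6 oil libraries and at 581 to 748 CPM in the 6 CCl4 libraries, while Lamp2 lies at 497 to 607 CPM on oil and 421 to 494 CPM on CCl4.

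In the V0 sector, Atp6v0c, the subunit that forms the proton-carrying ring, was called higher in both genotypes in CPM. It was at 172, 174 and 179 CPM on oil and 289, 245 and 292 CPM on CCl4 in wild type mice (log2 fold change 0.65, standard error 0.11, adjusted p = 0.00043 from limma, TMM scale 0.32). In null mice it went from 171, 169.7 and 176 to 280.2, 287 and 288 CPM (log2 fold change 0.72, standard error 0.08, adjusted p = 1.9e-05 from limma, TMM scale 0.30). The 6 oil libraries of both genotypes lay between 169.7 and 179 CPM. On the TMM scale neither change passed the fold threshold. Atp6v0e, a small membrane subunit, was called in null mice, from 58.2, 56.3 and 50.1 CPM on oil to 89.9, 90.9 and 89.8 CPM on CCl4 (log2 fold change 0.71, standard error 0.10, adjusted p = 0.00011 from limma, TMM scale 0.29). Its wild type response was 0.29 and turned to -0.04 on the TMM scale, not called in either. Atp6v0b, a further ring subunit, had 0.33 in wild type and 0.47 in null mice (TMM scale 0.00 and 0.05) and was not called.

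The pump has several subunits with more than 1 gene, and these copies did not respond alike in their point estimates. Of the large a subunits, Atp6v0a2 was called higher in both genotypes (0.72 in wild type and 0.67 in null mice, TMM scale 0.41 and 0.26). Its standard errors were 0.18 and 0.15, with adjusted p of 0.0082 and 0.0038 from limma. It went from 12.5, 15.2 and 16.3 to 31.6, 21.6 and 21.9 CPM in wild type mice and from 16.5, 16.6 and 13.8 to 25.7, 29.4 and 21.6 CPM in null mice, without overlap in either. Atp6v0a1 had 0.01 and 0.30, negative on the TMM scale (-0.30 and -0.12) and not called, and Atp6v0a4, a kidney form, was at or below 0.84 CPM. Without wild type CCl4 replicate 1 the wild type value of Atp6v0a2 was 0.54, under the fold threshold. The differences between copies were not tested.

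Of the d subunits, which join the ring to the stalk, Atp6v0d1 of most tissues had 0.14 in wild type and 0.17 in null mice, with the opposite sign on the TMM scale (-0.18 and -0.25), not called. Atp6v0d2, a form of osteoclasts, macrophages and kidney, was called lower on CCl4 in null mice under both scalings. In null mice it fell from 25.0, 26.4 and 38.8 to 12.9, 13.8 and 8.38 CPM without overlap (log2 fold change -1.29, standard error 0.21, adjusted p = 0.00037 from limma, TMM scale -1.69). The wild type libraries were at 16.5, 28.8 and 33.7 CPM on oil and 16.9, 15.1 and 19.5 CPM on CCl4, with wild type oil replicate 1 inside the range of the CCl4 libraries (log2 fold change -0.53, standard error 0.22, adjusted p = 0.076 from limma, TMM scale -0.85). This response was called in wild type mice on the TMM scale only. Atp6v0e2 was called higher in wild type mice (0.82, standard error 0.26, adjusted p = 0.030 from limma). Its libraries were at 0.819, 0.120 and 0.361 CPM on oil and 1.10, 1.92 and 1.48 CPM on CCl4, a level of few reads. The TMM scale gave 0.68 for it, not called, and the call was also lost without wild type oil replicate 2 (0.66) or 3 (0.80), wild type CCl4 replicate 2 (0.70) or 3 (0.82), or with a pseudocount of 5 (0.26).

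In the V1 sector, Atp6v1a, the subunit that binds and splits ATP, was called higher in both genotypes in CPM. Its wild type libraries went from 57.4, 52.9 and 45.4 to 74.9, 80.5 and 79.6 CPM (log2 fold change 0.59, standard error 0.12, adjusted p = 0.0020 from limma, TMM scale 0.27). In null mice they went from 57.9, 46.1 and 45.2 to 92.7, 94.3 and 62.8 CPM (log2 fold change 0.72, standard error 0.16, adjusted p = 0.0027 from limma, TMM scale 0.30). The groups did not overlap in either genotype, and null CCl4 replicate 3 was the lowest CCl4 library. The wild type call was lost without wild type oil replicate 3 (0.50) or with a pseudocount of 5 (0.55). Atp6v1g1 went from 73.9, 78.4 and 85.4 to 116, 113 and 133 CPM in null mice (0.60, standard error 0.10, TMM scale 0.18, adjusted p = 0.00048 from limma). Atp6v1c1, the regulatory C subunit of most tissues, went from 30.3, 27.3 and 33.5 to 47.5, 49.7 and 47.8 CPM in null mice (0.66, standard error 0.11, TMM scale 0.24, adjusted p = 0.00062 from limma). The null call of Atp6v1g1 was lost without null oil replicate 1 (0.55) or null CCl4 replicate 3 (0.53). The same genes had 0.22 and 0.53 in wild type mice (TMM scale -0.10 and 0.21), not called, though Atp6v1c1 was called there without wild type oil replicate 3 (0.57) or wild type CCl4 replicate 2 (0.60).

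The second copies of the C and G subunits, Atp6v1c2 and Atp6v1g2, had 0.43 and -0.32 in wild type mice (TMM scale 0.24 and -0.47), not called, at levels of few reads (0.33 to 3.22 CPM). In null mice Atp6v1g2 had 0.56 (TMM scale 0.35), not called either. Atp6v1b2, Atp6v1c2 and Atp6v1d were also called higher in null mice in CPM, with log2 fold changes of 0.67, 0.91 and 0.57, and on the TMM scale they had 0.26, 0.65 and 0.16, none called. Atp6v1c2 was not called by edgeR (1.01) or DESeq2 (1.01) either, nor with a pseudocount of 5 (0.37). It overlaps exons of Pdia6 on the opposite strand, and a share of reads from Pdia6 was not tested. Atp6v1b2 lost its call without null CCl4 replicate 2 (0.50), and Atp6v1d lost its own without null oil replicate 3 (0.52), without null CCl4 replicate 3 (0.49) or with a pseudocount of 5 (0.49). The remaining V1 subunits Atp6v1e1, Atp6v1f and Atp6v1h had values from -0.03 to 0.42 over both genotypes in CPM and from -0.45 to 0.01 on the TMM scale, none called. That made 6 of 10 V1 subunits called higher in null mice, where 29.6% of all genes were, and 1 of 10 in wild type mice, where 18.5% were. On the TMM scale it was 0 of 10 in either direction in both genotypes. Over the V0 and V1 subunits together the median log2 fold change was 0.33 in wild type mice, against 0.27 for all genes, and 0.56 in null mice, against 0.35. On the TMM scale the medians were 0.00 and 0.21, against 0.02 and 0.03. Of the accessory subunits, Atp6ap2, known also as the prorenin receptor, was called higher in null mice, from 35.3, 37.0 and 33.5 to 54.7, 64.9 and 52.5 CPM (0.68, standard error 0.12, TMM scale 0.26, adjusted p = 0.00050 from limma). Atp6ap1, an assembly factor of the pump, had 0.46 and 0.47 (TMM scale 0.14 and 0.05). In CPM both passed the adjusted p and not the fold threshold, except without wild type CCl4 replicate 2 (0.59).

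**Figure D4:**
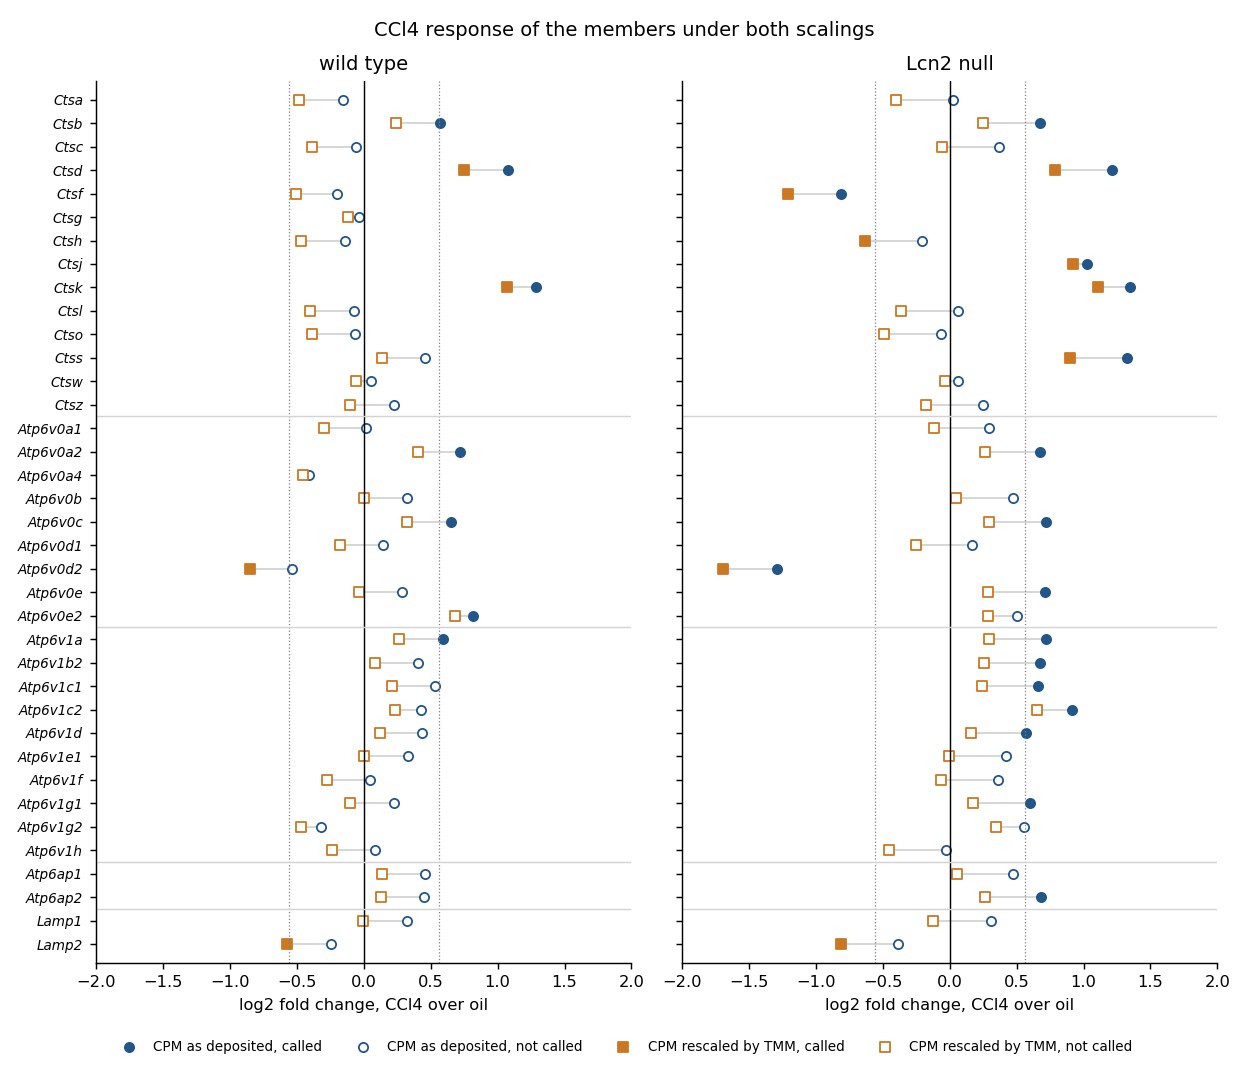
Log2 fold change of CCl4 over oil for each gene of the set in wild type (left) and Lcn2 null mice (right), from CPM as deposited (circles) and from CPM rescaled by TMM (squares); filled symbols are called, dotted lines mark the fold threshold of 0.56, and genes without symbols were not listed. Ctsd and Ctsk are filled in both scalings and both genotypes, while none of the V1 subunits is filled on the TMM scale.

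Lamp1 and Lamp2, whose products are the most abundant proteins of the lysosomal membrane, had log2 fold changes of opposite sign in CPM. Lamp1 was at 474, 461 and 517 CPM on oil and 637, 543 and 642 CPM on CCl4 in wild type mice (log2 fold change 0.32, standard error 0.11, adjusted p = 0.043 from limma). In null mice it went from 480.5, 536 and 470.5 to 633, 615 and 589 CPM (log2 fold change 0.31, standard error 0.09, adjusted p = 0.013 from limma). Both passed the adjusted p and stayed under the fold threshold, and on the TMM scale they were -0.00 and -0.12, so the direction of Lamp1 rests on the scaling. Lamp2, which is also the receptor of chaperone-mediated autophagy, was at 581, 497 and 563 CPM on oil and 443, 447 and 494 CPM on CCl4 in wild type mice (log2 fold change -0.25, standard error 0.11, adjusted p = 0.11 from limma). The null libraries went from 607, 554 and 544 to 421, 438 and 447 CPM (log2 fold change -0.38, standard error 0.08, adjusted p = 0.0029 from limma). The CPM of Lamp2 on oil and CCl4 did not overlap in either genotype, and on the TMM scale (-0.57 and -0.81) Lamp2 was called lower in both. Lamp1 overlaps exons of Grtp1 on the opposite strand, and the strand setting of the counting is not known here.

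Summed over the 12 cathepsins listed in every table, the level was 2944, 2791 and 3152 CPM in wild type mice on oil and 2321, 2568 and 2446 CPM in null mice on oil. On CCl4 the sums were 3683, 3555 and 3912 CPM in wild type and 3473, 3647 and 3115 CPM in null mice. Within each genotype all oil libraries were below all CCl4 libraries, and on oil the null libraries were all below the wild type libraries. The 18 pump subunits summed to 804 to 904 CPM over the 6 oil libraries and to 1053 to 1182 CPM over the 6 CCl4 libraries. Lamp1 and Lamp2 together were at 958 to 1135 CPM over all 12 libraries, with overlap of all 4 groups. These sums carry the scaling of the CPM and were not tested.

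**Figure D5:**
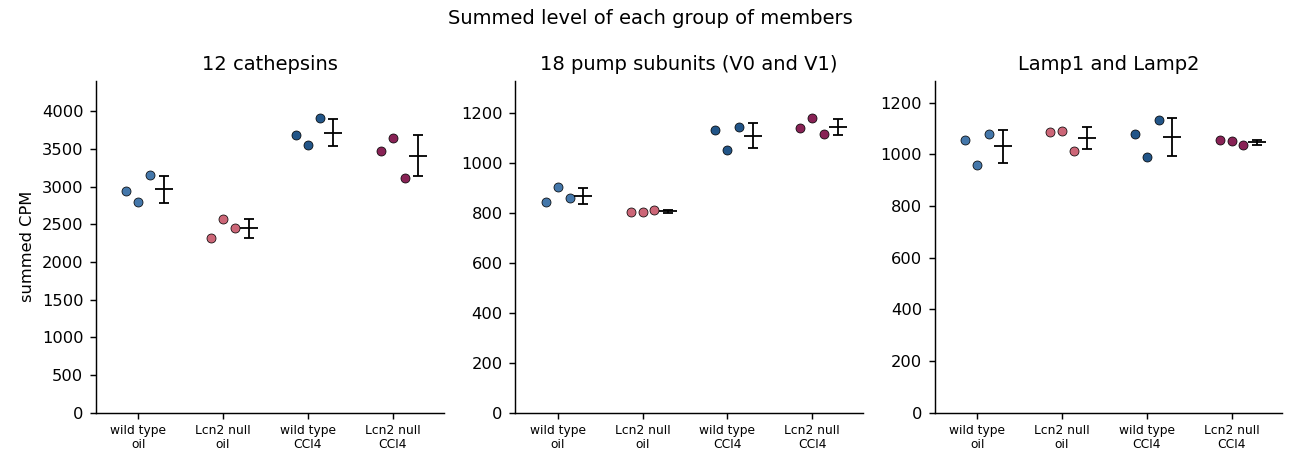
Summed CPM of the 12 cathepsins, the 18 V0 and V1 subunits and the 2 LAMPs in each library (points), with the mean and SD of 3 libraries per group. The group means of the cathepsins are 2962 and 2445 CPM on oil and 3717 and 3412 CPM on CCl4 in wild type and null mice, while the LAMP sum lies between 958 and 1135 CPM in all libraries.

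Cell type markers moved with CCl4 as well, on a scale on which 18.5% of all genes were called higher in wild type and 29.6% in null mice. In CPM 3.18% and 4.51% of all genes were called lower. On the TMM scale 7.57% and 12.5% were called higher and 6.82% and 10.7% lower. Of 7 markers of lipid-associated macrophages 5 were called higher in wild type and 7 in null mice, with sums of 593 to 967 and 193 to 311 CPM on oil and 1424 to 1704 and 1033 to 1223 CPM on CCl4, and with Gpnmb at 0 in 2 libraries. The TMM scale gave 5 higher and 1 lower in wild type mice and 7 higher in null mice. Of 8 stellate cell and fibroblast markers 5 were called higher in wild type and 6 in null mice, and their sums were 346 to 459 and 187 to 309 CPM on oil and 1194 to 1899.7 and 706 to 1428 CPM on CCl4. On the TMM scale 5 were called higher in wild type mice, and 6 higher and 1 lower in null mice. Kupffer cell markers had 7 of 12 called lower in wild type mice, and 6 higher and 3 lower in null mice (TMM scale 7 lower, and 1 higher and 4 lower). The 10 monocyte markers had 2 called higher in wild type and 10 in null mice under either scaling. Of the neutrophil markers 4 of 11 were called lower in wild type and 7 of 10 higher in null mice (TMM scale 4 lower and 4 higher). Of the 8 hepatocyte markers 1 was called higher and 2 lower in wild type mice, and 1 lower in null mice, and on the TMM scale 3 were called lower in each genotype and 0 higher. The 9 T and NK cell markers had 0 called in either genotype under either scaling. The part of these cell types in the responses of Ctsd, Ctsk, Ctss and the pump subunits was not tested.

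Other lysosomal genes showed the same dependence on scaling. Of the 104 genes in the 5 lists, 23 were called higher and 4 lower on CCl4 in wild type mice, and 7 higher and 10 lower on the TMM scale. In null mice 35 were called higher and 5 lower, and 12 and 15 on the TMM scale. Over all genes 18.5% were called higher and 3.18% lower in wild type mice (TMM scale 7.57% and 6.82%). In null mice these shares were 29.6% and 4.51% (TMM scale 12.5% and 10.7%). The median log2 fold change of the 104 genes was 0.20 in wild type and 0.31 in null mice, against 0.27 and 0.35 over all genes. Among the 40 hydrolases the counts were 13 higher and 2 lower in wild type and 16 higher and 2 lower in null mice (TMM scale 2 and 3, and 6 and 7). The sulfatases Arsb (1.11 in wild type mice, TMM scale 0.80) and Galns (1.34 and 1.65 in wild type and null mice, TMM scale 1.05 and 1.27), the glucuronidase Gusb (0.87 and 1.44, TMM scale 0.55 and 1.02) and Lgmn (1.51 in null mice, TMM scale 1.09) were higher in CPM. Plbd1 (-1.58 and -0.91, TMM scale -1.90 and -1.33) and the hyaluronidase Hyal1 (-0.83 and -0.69, TMM scale -1.14 and -1.09) were called lower in both genotypes under both scalings.

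In the membrane list, Cd63 rose by 2.87 in wild type and 3.47 in null mice, Cd68 by 1.05 and 2.10, and Laptm5 by 0.95 and 1.31, all called under both scalings (TMM scale 2.56 and 3.09, 0.74 and 1.70, 0.63 and 0.90). The list had 3 called higher and 1 lower of 29 in wild type mice and 6 and 0 in null mice (TMM scale 3 and 3 in each). Of the 11 sorting and activator proteins 3 were called higher in wild type mice, and 5 higher and 1 lower in null mice (TMM scale 1 and 0, and 0 and 1). The mannose 6-phosphate receptor Igf2r (0.92 in wild type mice, TMM scale 0.60) and the saposin precursor Psap (0.73 and 0.79, TMM scale 0.41 and 0.36) were among the higher ones. Of the 7 cathepsin inhibitors 2 were called higher in wild type mice, and 4 higher and 1 lower in null mice (TMM scale 1 and 2, and 2 and 1), with cystatin B, Cstb, at 0.81 and 1.24 (TMM scale 0.49 and 0.82). Of the 17 Ragulator and MiT/TFE genes 2 were called higher and 1 lower in wild type and 4 and 1 in null mice (TMM scale 0 and 2, and 1 and 3). The transcription factor Tfe3, a relative of TFEB, had 0.57 and 0.87 (TMM scale 0.26 and 0.46, not called), and the folliculin gene Flcn, a brake on Tfe3, had -0.83 and -0.63 (TMM scale -1.14 and -1.03).

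Whether the CCl4 response differed between the genotypes was tested as an interaction in 1 fit of all 12 libraries. None of the 34 genes was called, by limma, edgeR or DESeq2, against 1.09% higher and 0.816% lower of all 15194 genes. Without adjustment, 7 of the 34 had a p under 0.05, of which 6 had a more positive and 1 a more negative response in null mice. The share of all genes under this p was not counted, so no excess is read from it. The median difference of the 34 genes was 0.12 against 0.09 over all genes, and 0.04 against 0.01 on the TMM scale. The smallest adjusted p values belonged to Ctsc, with a difference of 0.43 (95% interval 0.14 to 0.72, adjusted p = 0.13 from limma), and Ctss, with 0.86 (0.26 to 1.46, adjusted p = 0.14). Without null CCl4 replicate 3 the difference of Ctss was 1.12 with an adjusted p of 0.017 from limma, and over its 19 alternatives the adjusted p ran from 0.017 to 0.31. For Atp6v0d2 the difference was -0.76 (-1.46 to -0.05), and for Ctsd it was 0.13 (-0.19 to 0.46). The comparisons on oil and within null mice share the 3 null oil libraries. The low oil level of Ctss in null mice and the larger estimate of its response there are thus not separate observations.

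Set beside the promoters, the genes with TCACGTGA did not respond as a block. Ctsd and Atp6v1a were called higher in both genotypes and Atp6v0e in null mice in CPM, while Ctsa (-0.16 and 0.02, TMM scale -0.48 and -0.40) and Atp6v0d1 (0.14 and 0.17, TMM scale -0.18 and -0.25) were not called. Only Ctsd of these 5 was called on the TMM scale. Lamp1, with 4 copies of CACGTG, was not called in any comparison. The GAGGAAGT match was present in the 2 genes called on oil and in none of the other 26 genes with a promoter window. With 28 windows and motifs chosen with the results known, no test was made of these overlaps.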

How the data were processed

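Whole liver RNA of 12 libraries, 3 per group of genotype and injection, was made into 3′ end libraries with the rapid MACE kit per the labels. A stranded total RNA kit is named in the study's methods too. The authors aligned the reads to mm10 with STAR, and the sources name both featureCounts and Salmon for counting. The deposited CPM are reads per gene scaled by the authors to the total of each library, without size factors. Within a library every CPM was a whole multiple of 1 read (tolerance 0.001, 100% of values), which gave the reads for edgeR 4.0.16 and DESeq2 1.42.0. All value columns were matched to a library (0 were left unmapped), and the CPM of a library did not differ between tables. The authors' own DESeq2 1.30.0 columns (fold changes, p-values, mean levels) and their enrichment tables were not used.

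Each comparison was fitted with limma 3.58.1 (R 4.3.3, variance trend) on log2(CPM + 1) over its 6 libraries, and the difference of the CCl4 responses over all 12. The thresholds, an adjusted p of 0.05 and a log2 fold change of 0.56, were those of the study. The test was checked on simulated reads with 200 changed genes. The simulation held no shift of whole libraries and changed no low genes, so it does not cover those cases. Alternatives were pseudocounts of 0.5 and 5, a mean of at least 1 CPM, TMM, edgeR, DESeq2, the replicate number as a block, 1 fit of 12 libraries and each library left out. Up to 10 called genes per direction and comparison, Ctsj apart, were given in full by adjusted p. Lamp1, Lamp2 and the remaining genes were given by count, range or value. Up to 3 called genes per direction were named from each lysosomal list. Other named genes were chosen for their role or after their values were seen. The genes, lists and motifs were chosen with earlier results of these data known. Gene positions come from GENCODE M21 and promoters from RefSeq. On the reference, 3 of the 37 genes share an exon with a gene on the same strand and 13 with a gene on the opposite strand. These include Ctsl (Gm49230) on the same strand, and Atp6v1c2 (Pdia6), Ctsb (Fdft1) and Ctsa (Neurl2 and Pltp) on the opposite strand. Reads of such pairs were not separated.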

Additional observations from a re-analysis of the deposited data

Results flagged for a closer look

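The CCl4 response of 2 cathepsin inhibitors differed between the genotypes by the interaction test. Serpinb1a, an inhibitor of neutrophil serine proteases, had a response that differed by -1.84 on the log2 scale, null minus wild type (adjusted p = 0.025 from limma). It was at 4.79 ± 0.675 CPM on CCl4 and 24.6 ± 7.20 CPM on oil in null mice, and at 8.45 ± 3.23 and 10.7 ± 5.23 CPM in wild type mice. Serpinb6b differed by 1.62, null minus wild type (adjusted p = 0.027 from limma), at 3.62 ± 0.862 CPM on CCl4 and 1.39 ± 0.677 CPM on oil in null mice and 3.02 ± 0.648 and 5.26 ± 0.644 CPM in wild type mice. Serpinb6b has close relatives in the genome, among which reads could be split. Leaving out single libraries moved the number of such genes in the 5 lysosomal lists between 0 and 4.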

How the results depend on the processing

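The calls of Ctss and Ctsc on oil and the absence of calls on CCl4 between the genotypes held under every alternative run. The CCl4 responses depended on scaling. The number called in wild type mice was 4 with TMM and 4 with edgeR against 7, and DESeq2 called 2 higher and 3 lower. In null mice the number was 8 with TMM, 8 with edgeR and 8 with DESeq2 against 17 (Ctsj counted in each). Leaving out single libraries gave 5 to 9 in wild type mice and 15 to 17 in null mice, and 0 to 1 for the difference of the responses (Ctss, without null CCl4 replicate 3).

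Several genes that passed the adjusted p in CPM had the opposite sign after rescaling, with rescaled values from -0.18 to -0.0032. In wild type mice these were Lamp1 (TMM -0.0032, edgeR -0.0039, DESeq2 -0.016), Atp6v0b (DESeq2 -0.0059) and Atp6v1e1 (DESeq2 -0.0092). In null mice they were Lamp1 (-0.12 with TMM, -0.12 with edgeR, -0.13 with DESeq2), Ctsc (-0.055, -0.056 and -0.061), Ctsz (-0.18, -0.18 and -0.18), Atp6v1e1 (-0.0054, -0.0081 and -0.011) and Atp6v1f (-0.064, -0.068 and -0.075).

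For the other lysosomal lists, the number called on oil was 6 with a pseudocount of 5 against 10, and 3 to 9 without single libraries (3 without wild type oil replicate 2, 4 without null oil replicate 1 or 2, 6 without wild type oil replicate 1). On CCl4 between the genotypes it was 0 with edgeR and 0 in 1 fit of 12 libraries against 1 (Plbd2), and 0 to 1 without single libraries (0 without wild type CCl4 replicate 2 or null CCl4 replicate 2 or 3). In wild type mice it was 17 with a pseudocount of 5 and 17 with TMM against 27. For the difference of the responses it was 5 with DESeq2 against 2, and 0 to 4 without single libraries (4 without null CCl4 replicate 3, 0 without null oil replicate 1 or 2, null CCl4 replicate 1 or wild type CCl4 replicate 2).

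The replicate numbers were not treated as pairs. The same-numbered deviations from the group means correlated at -0.09 to 0.06 over 12 pairs. Such values show no strong shift shared by same-numbered libraries, and they cannot settle whether the libraries were paired. With the replicate block the called genes of the set were 2 on oil, 0 on CCl4, 7 in wild type mice, 17 in null mice and 0 for the difference, as without it. With the pairing the lists gave 8, 1, 25, 39 and 2.

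Genes near 1 CPM rest on about 10 reads per library, so smaller changes of Ctsj, Ctsg, Ctsw, Atp6v0e2, Atp6v1c2 and Atp6v1g2 were not detectable at this depth. The cause of the scaling shift was not tested.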
